A study of Mus musculus with 15 samples.

Results

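The 10 genes described here were Tnmd, Scx, Mkx, Thbs4, Fmod, Comp, Kera, Chad, Tnc and Ankrd33b, listed as genes of tendon and of the myotendinous junction. They were found by gene name in both deposited tables, 10 of 55536 genes, and all 10 had values above 0 in all 15 mice. The study compared skeletal muscle of male mice aged 2 months by RNA sequencing of poly(A) RNA. There were 5 wild-type controls, 5 mice with Pdgfrb knocked out and 5 with Pdgfrb D489V, a constitutively active form, and both alleles are described as specific to myogenin, a gene of differentiating muscle cells. Neither the muscle taken, the Cre line, the strain nor the alleles of the wild-type mice are given in the labels. The limma p-values below weigh differences between group means against the spread between the mice within groups.

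Tendon joins muscle to bone and is built mainly of collagen fibrils laid down by tendon fibroblasts. The transcription factors Scx (a basic helix-loop-helix protein) and Mkx (a homeodomain protein) are known for driving the tendon programme, and Tnmd, a type II membrane protein, is a marker of mature tendon cells. Fmod and Kera belong to the small leucine-rich proteoglycans that bind collagen, Chad is a related leucine-rich matrix protein, Thbs4 and Comp are thrombospondins, and Tnc is a matricellular glycoprotein of loaded tissue. Ankrd33b encodes an ankyrin repeat protein. At the myotendinous junction the fibre ends are anchored to this matrix through integrin and dystrophin complexes.

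The values were normalized counts, summing to 29815559 to 36489777 per mouse, and the 5 control columns were the same in both tables for all 55536 genes. Genes of fast muscle fibres were abundant throughout, with a summed normalized count for 10 genes of 6305632 to 8993271. Pdgfrb was 1754 ± 72.9 in controls, 1308 ± 266 in knockout and 906 ± 106 in D489V (SD, n = 5 each), and every mutant mouse lay below every control. Xist, which is transcribed from an inactive X chromosome, stood at 3165 in knockout mouse 3 and at 101 or less in the other 14, all labelled male, so values without this mouse are given below. In bulk muscle, fewer tendon cells and less RNA per tendon cell cannot be told apart.

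All 10 are protein-coding genes in GENCODE M21 (GRCm38), on 9 chromosomes, values being summed over each gene. They include Tnmd (chrX:133850980-133865577, plus strand), Scx (chr15:76457452-76459458, plus strand), Thbs4 (chr13:92751590-92794818, minus strand), Fmod (chr1:134037254-134048277, plus strand), Comp (chr8:70373558-70382066, plus strand) and Ankrd33b (chr15:31291478-31367726, minus strand). Scx and Ankrd33b share chromosome 15.

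Promoters of 4 members are shown because Fmod, Thbs4 and Tnmd had levels that varied together across mice and Ankrd33b was the member called in a comparison. Each is the 250 bases before the start of the RefSeq transcript on GRCm38.p6, with any E-box (CANNTG, the same on both strands), the element that basic helix-loop-helix proteins such as Scx bind, in capitals. Fmod lies at chr1:134037004-134037253 on the plus strand, Thbs4 at chr13:92794819-92795068 on the minus strand, Tnmd at chrX:133850758-133851007 on the plus strand and Ankrd33b at chr15:31367760-31368009 on the minus strand.
Fmod: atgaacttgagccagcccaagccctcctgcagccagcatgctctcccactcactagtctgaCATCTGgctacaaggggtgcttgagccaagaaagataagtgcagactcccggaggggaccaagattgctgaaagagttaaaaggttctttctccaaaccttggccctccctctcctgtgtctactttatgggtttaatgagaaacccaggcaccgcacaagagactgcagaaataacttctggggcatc
Thbs4: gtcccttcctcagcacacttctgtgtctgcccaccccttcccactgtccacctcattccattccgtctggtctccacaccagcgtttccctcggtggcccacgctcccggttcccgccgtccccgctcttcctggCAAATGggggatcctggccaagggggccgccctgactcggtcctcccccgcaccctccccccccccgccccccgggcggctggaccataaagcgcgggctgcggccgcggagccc
Tnmd: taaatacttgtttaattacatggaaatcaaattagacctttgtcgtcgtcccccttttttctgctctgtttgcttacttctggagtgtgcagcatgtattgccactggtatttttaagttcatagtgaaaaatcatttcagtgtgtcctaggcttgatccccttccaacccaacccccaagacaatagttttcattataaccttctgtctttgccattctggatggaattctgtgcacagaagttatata
Ankrd33b: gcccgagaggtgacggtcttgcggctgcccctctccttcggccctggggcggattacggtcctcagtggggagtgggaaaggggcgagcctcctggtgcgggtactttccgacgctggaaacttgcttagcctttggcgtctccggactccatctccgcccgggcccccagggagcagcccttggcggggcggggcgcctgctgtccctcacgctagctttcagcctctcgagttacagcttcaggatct
An E-box stood in the windows of Fmod (1) and Thbs4 (1), and none stood in those of Tnmd and Ankrd33b. Promoters were counted for 7 of the 10 members, 8 promoters in all, and 5 of these held an E-box. Scx, Mkx and Comp were not counted, so the share for all 10 members is not known. Across all 32851 promoters of the table, 66.2% held at least 1.

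Thbs4 and Fmod supplied most of the signal. Per kilobase of exon, Thbs4 stood at 2068 and Fmod at 2052 normalized counts on average over 15 mice, and their order was not resolved, since Thbs4 was the higher in 9 of 15. Tnmd followed at 542, below Fmod in 15 of 15 mice. Chad (424), Kera (374) and Comp (342) came next, and each was above its lower neighbour in only 9 of 15 mice for Chad against Kera and Kera against Comp. Scx (184) was below Comp in 13 of 15, Ankrd33b (142) was below Scx in 9 of 15, and Tnc (84.1) was below Ankrd33b in 12 of 15. Mkx was the lowest at 17.4 per kilobase, below Tnc in 15 of 15 mice, and its low level limits its precision. This order is that of the mean over 15 mice, and neighbours changed places within groups: Fmod (2254) stood above Thbs4 (2033) and Kera (443) above Chad (434) in controls, Ankrd33b (188) above Scx (163) in knockouts and Comp (332) above Kera (308) in D489V, as the plot of levels per kilobase shows.

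**Figure D1:**
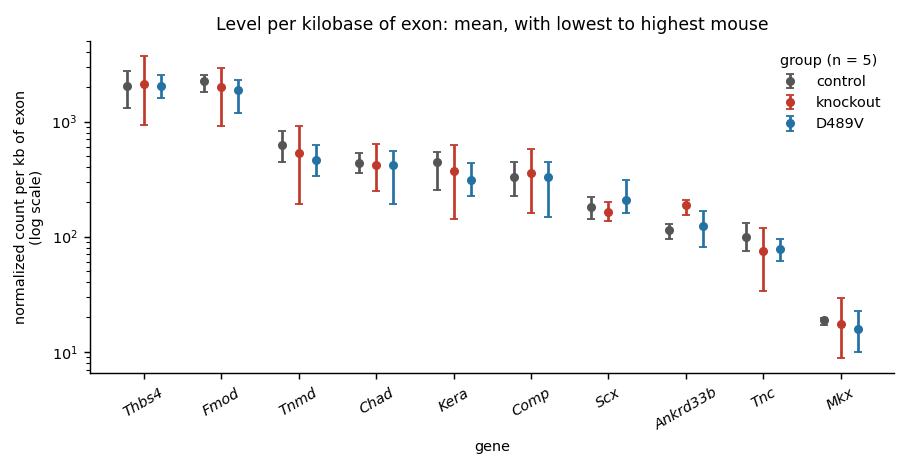
Normalized count per kilobase of exon on a log axis for the 10 genes, ordered by their mean over 15 mice; points are means of 5 mice and bars run from the lowest to the highest mouse. Thbs4 and Fmod lie near 2000, Mkx near the bottom, and the 3 groups overlap for 9 of the genes in every pairing.

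The summed level of the 10 genes differed most among the knockout mice. It was 30335, 26827, 9876, 15252 and 15553 normalized counts in knockout mice 1 to 5. It was 20960, 20564, 24071, 19091 and 14961 in controls 1 to 5, and 12570, 17413, 18837, 22114 and 20109 in D489V mice 1 to 5. The 2 highest mice and the lowest mouse of all 15 were thus knockouts, with a range of 3.07-fold against 1.61-fold in controls and 1.76-fold in D489V. Without knockout mouse 3 the knockout range was 1.99-fold. Fmod and Thbs4 together made up 61.7% to 73.0% of the sum.

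Fmod, which regulates collagen fibril assembly, had normalized counts of 8009, 7476, 8393, 7457 and 5927 in controls 1 to 5. In knockouts 1 to 5 it was 9750, 9174, 3013, 5871 and 5290, and in D489V 1 to 5 it was 3943, 6122, 7264, 7579 and 6491. Knockouts 1 and 2 lay above all controls and knockouts 3 to 5 below all of them, so the group means hide a split on both sides. The mean was 7452 ± 938 in controls, 6620 ± 2813 in knockout and 6280 ± 1431 in D489V (SD, n = 5 each).

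Tnmd showed the same split. Its normalized counts were 1113, 966, 834, 733 and 605 in controls, 1243, 1161, 258, 503 and 476 in knockouts, and 452, 603, 855, 697 and 508 in D489V, each in the order of mice 1 to 5. The lowest knockout held 258 against 605 in the lowest control, while the highest held 1243 against 1113. Kera, the proteoglycan best known from the cornea, ran 1244, 1236, 1176, 813 and 585 in controls, 1414, 1262, 327, 493 and 735 in knockouts, and 514, 725, 989, 720 and 561 in D489V. Again knockouts 1 and 2 exceeded every control, and here knockouts 3 and 4 fell below every control.

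The thrombospondin Thbs4, which is enriched at the myotendinous junction, held 6788, 7061, 9000, 6237 and 4343 normalized counts in controls 1 to 5. It held 12268, 9359, 3080, 4805 and 5344 in knockouts and 5229, 6214, 6175, 8325 and 7775 in D489V, so that all D489V values fell inside the control range. Comp, the other thrombospondin, ran 985, 902, 1328, 1050 and 666 in controls, 1582, 1713, 472, 715 and 865 in knockouts and 437, 1021, 871, 1281 and 1313 in D489V. Tnc ran 852, 750, 1026, 629 and 585 in controls, 875, 916, 261, 479 and 399 in knockouts and 476, 500, 635, 748 and 674 in D489V. Knockout 3 was the lowest of the 15 mice for Tnmd, Scx, Thbs4, Fmod, Kera and Tnc, and the second lowest for Mkx, Comp and Chad.

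Chad had normalized counts of 697, 663, 901, 784 and 597 in controls, 865, 1072, 422, 685 and 467 in knockouts and 325, 726, 620, 925 and 927 in D489V, and the groups overlapped. Both transcription factors were expressed at lower levels. Mkx ran 77, 70, 81, 79 and 80 in controls, 121, 91, 38, 36 and 73 in knockouts and 42, 81, 92, 67 and 41 in D489V, so the controls lay closest together. Scx ran 357, 354, 286, 379 and 443 in controls, 402, 368, 275, 300 and 291 in knockouts and 323, 457, 629, 320 and 345 in D489V. The D489V mouse 3 value of 629 was the highest Scx of all mice, and the same mouse had the highest summed level of 10 Schwann cell genes, 51820, where the other 14 held 6585 to 15799. The part of these Schwann cell genes in the Scx value was not tested. Scx lies within Bop1 on the opposite strand (Bop1 at 643 to 1155 normalized counts), and Chad lies within Acsf2 on the opposite strand (134 to 430), so with a counting strand that is not given in the sources used here, reads of each pair may be shared.

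**Figure D2:**
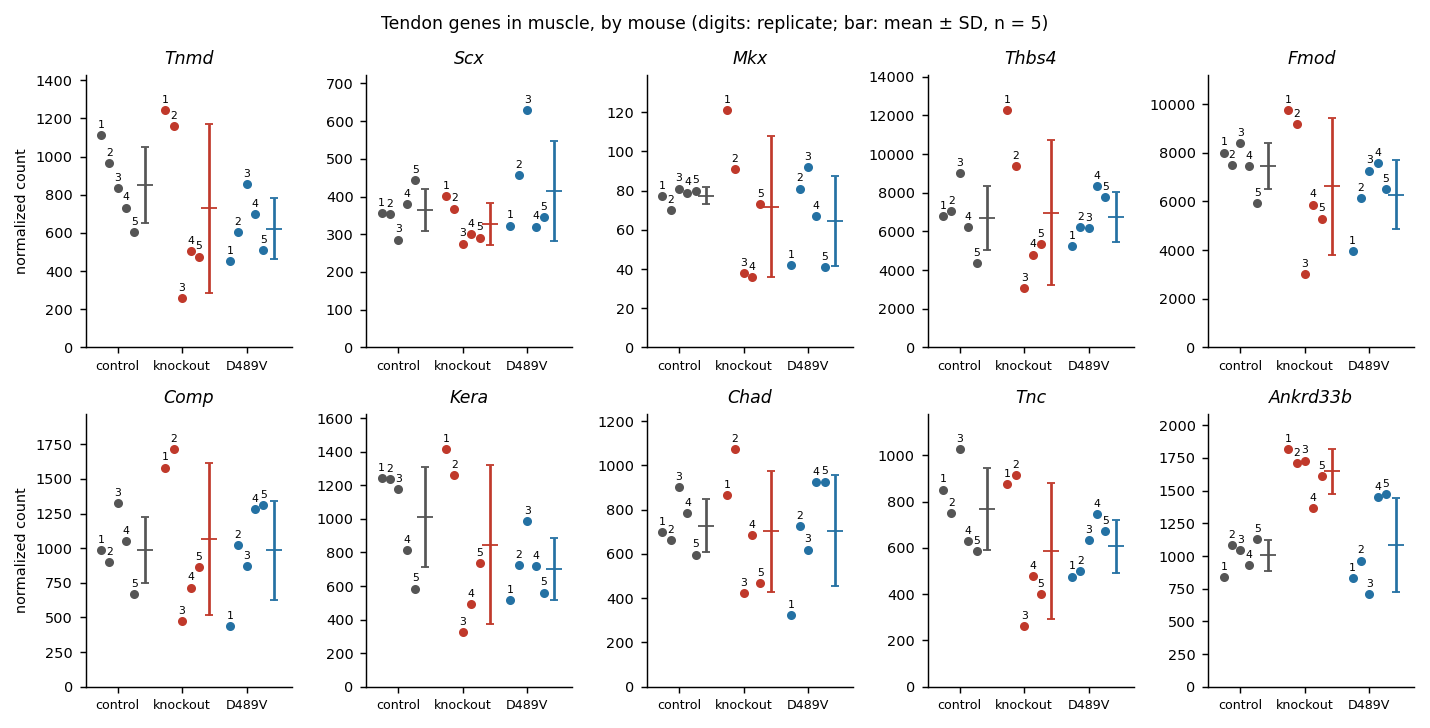
Normalized count (linear axis from 0) of each tendon gene in each mouse, with digits for the replicate number and a bar for the mean ± SD of 5 mice. Knockouts 1 and 2 stand high and knockouts 3 to 5 low for most matrix genes, whereas the 5 knockouts stand together, at 1365 to 1815, for Ankrd33b.

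In knockout against control, 0 of the 10 members passed an adjusted p under 0.05 (limma with Benjamini-Hochberg adjustment over 15234 genes, log2(value + 1)), where 0.00656% of all genes did (1 gene). At an unadjusted p under 0.05 the member count was 1 of 10, against 2296 of all genes tested. The members' median log2 change was -0.21, beside 0.01 for all genes tested. The change of Tnmd was -0.43, with a 95% interval from -1.26 to 0.40 and a limma adjusted p of 0.573. Fmod had a log2 change of -0.28 (-0.87 to 0.31) and Thbs4 one of -0.07 (-0.80 to 0.65), so the intervals reached both sides of 0. Without knockout mouse 3 the log2 changes were -0.12 for Tnmd, -0.03 for Fmod and 0.18 for Thbs4, none past the threshold.

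Ankrd33b differed from the other members. Its normalized counts were 838, 1086, 1046, 930 and 1130 in controls and 1815, 1711, 1730, 1365 and 1613 in knockouts 1 to 5. All 5 knockouts lay above all 5 controls. Groups failed to overlap for 2.24% of the 15234 genes tested, and Ankrd33b was the only member among them. The mean was 1006 ± 120 in controls and 1647 ± 173 in knockout (SD, n = 5 each), a log2 difference of 0.71 (SE 0.11). Its limma adjusted p of 0.112 did not pass the threshold over all genes, and its exact two-sided permutation p was 0.00794, the smallest that 5 against 5 mice can give. Without knockout mouse 3 the log2 difference was 0.69 (limma adjusted p 0.22).

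In D489V against control, with the same 5 controls, 0 of 10 members passed by limma, where 0.0587% of 15339 genes did (9 genes; 0.0261% higher and 0.0326% lower). The split of calls was 10 higher of 17 with upper-quartile rescaling and 1 of 1 with fast fibre rescaling. No member had groups that failed to overlap, where 2.16% of all genes did. The count at an unadjusted p under 0.05 was 1 of 10 members and 1447 of all genes. The members' median log2 change was -0.20, beside 0.00 over all genes tested. Kera had a log2 change of -0.51 (95% interval -1.02 to 0.00, limma adjusted p 0.536) and Tnmd one of -0.45 (-0.88 to -0.03, limma adjusted p 0.502), where the intervals are not adjusted for the number of genes. D489V mice 1, 2 and 5 lay below all controls for Tnmd, and mice 1 and 5 for Kera. Ankrd33b was 1085 ± 357 in D489V (SD, n = 5), with mice at 829, 964, 707, 1452 and 1474, a log2 change of 0.05 (-0.38 to 0.49) that lay on both sides of the controls.

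Knockout and D489V were also compared directly, which is the test of the difference between their changes from the shared controls. Of the 10 members 1 passed by limma, where 20.8% of 15299 genes did, and it was higher in knockout, as were 10.5% of all genes, while 10.3% were lower. Rescaling to fast fibre genes moved the median log2 difference of all genes from 0.00 to 0.11, and then 250 of 639 calls were higher, with Ankrd33b at 0.77 (limma adjusted p 0.0752) and no member called. That gene was Ankrd33b, at a log2 difference of 0.66 (SE 0.19; limma adjusted p 0.0324). Knockouts 1, 2, 3 and 5 exceeded every D489V mouse, while knockout 4 at 1365 lay below D489V mice 4 and 5. Without knockout mouse 3 the difference was 0.64 and no longer passed (limma adjusted p 0.0606), and the call was also lost without knockout 1, 2 or 5 or D489V 1, 2 or 3, with log2 differences of 0.52 to 0.66. With the replicate number as a block it was 0.66 and did not pass (limma adjusted p 0.0638). Markers of other cell types also differed between these groups: 8 of 8 endothelial genes (summed level 10514 to 15694 in knockout and 18303 to 21187 in D489V) and 8 of 10 Schwann cell genes (6585 to 10296 and 12962 to 51820) were lower in knockout. So were 6 of 9 adipocyte genes (21158 to 30737 and 38741 to 116012) and 4 of 9 mural cell genes (22913 to 25314 and 25120 to 31525), and 1 mural cell gene was higher. Their part in the Ankrd33b difference was not tested. For the other 9 members the log2 differences lay between -0.31 and 0.10, the widest 95% interval being that of Tnmd, -0.79 to 0.84.

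**Figure D3:**
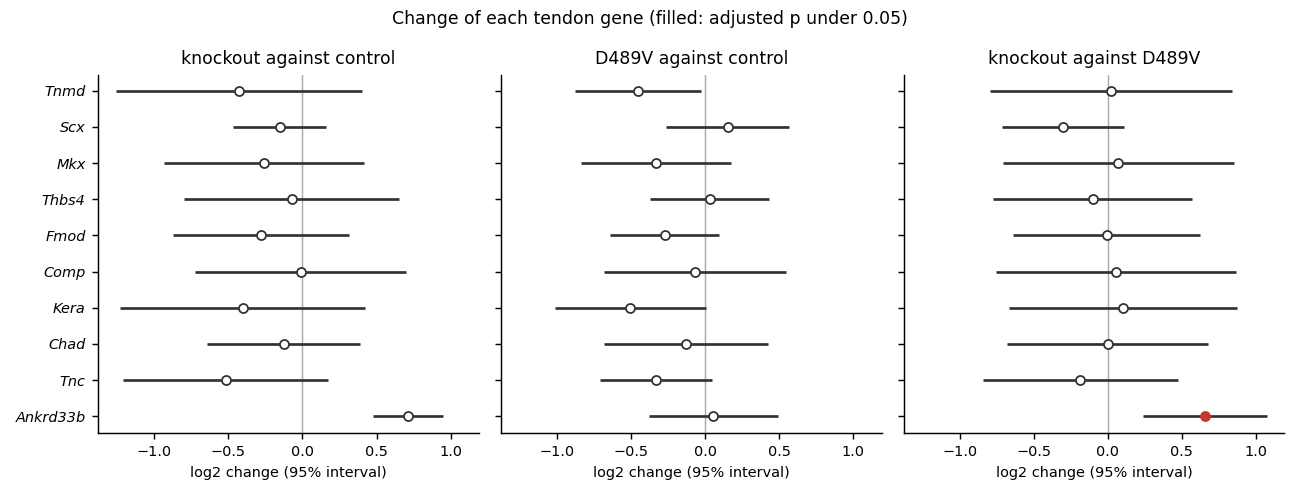
Log2 change of each tendon gene in the 3 comparisons, with points for the fitted change and lines for its unadjusted 95% interval; a filled point passed an adjusted p under 0.05. Of the 30 points only Ankrd33b in knockout against D489V, at 0.66, is filled.

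Levels of the matrix genes varied together from mouse to mouse. Pearson's r of log2(value + 1) over 15 mice lay between 0.72 and 0.96 for the 15 pairs among Tnmd, Kera, Fmod, Tnc, Thbs4 and Comp, which were grouped after their values were seen. With each group's mean removed the range was 0.76 to 0.95, and without knockout mouse 3 it was 0.62 to 0.94. The closest pair was Tnmd and Kera, at 0.96. Comp and Chad formed another close pair at 0.92. Scx had a median r of 0.23 with the other 9 members and Ankrd33b one of -0.11. For Ankrd33b r moved with the version used: with Comp it was 0.28, then 0.42 with group means removed and 0.54 without knockout mouse 3. With Thbs4 it was 0.13, 0.30 and 0.44, and with Chad 0.24, 0.46 and 0.43 in the same order. Its r with Tnmd was -0.17, -0.05 and 0.05, and with Scx it was negative in all 3 versions (-0.50, -0.40 and -0.43). With the mean log2 level of other gene lists over 15 mice, the r of Ankrd33b was -0.19 for other tendon and paratenon genes and 0.10 for collagens. It was highest for fast fibre genes (0.55) and the fibre side of the junction (0.54), and lowest for mural cell (-0.81) and Schwann cell genes (-0.80). The r with gene lists were taken only without removing group means, so differences between the groups enter them. Whether Ankrd33b reports on tendon in this muscle was not tested. All values carry the authors' normalization, and these r describe the 15 mice.

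**Figure D4:**
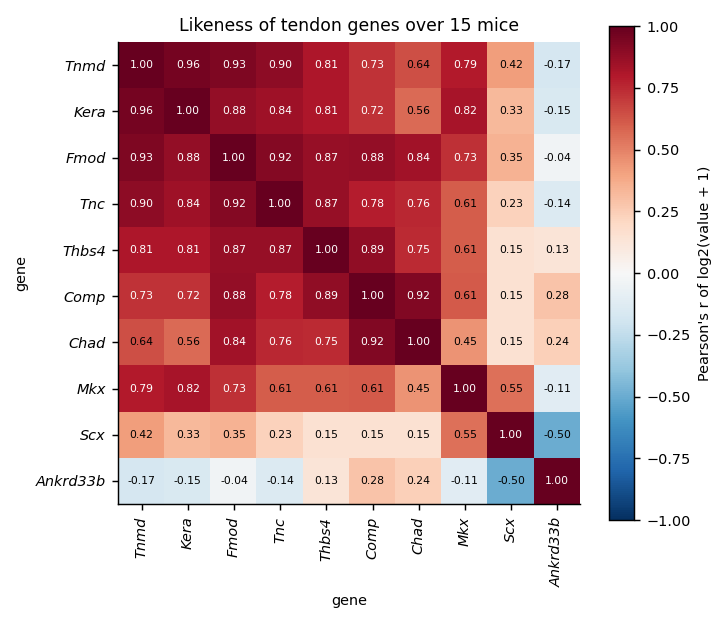
Pearson's r of log2(value + 1) over 15 mice for each pair of tendon genes, from -1 in blue to 1 in red. The block from Tnmd to Comp holds values of 0.72 to 0.96, and the row of Ankrd33b ranges from -0.50 to 0.28.

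Among the other genes with a mean of 50 or more, those most like each member were ranked by r of log2(value + 1) over the 15 mice, as a description. Tnmd was followed most closely by Mfap4, a microfibril-associated protein, with an r of 0.96. Fmod was followed by Cilp2, of the cartilage intermediate layer protein family, at 0.95, by Ccn4 at 0.94 and by Thbs2 at 0.94. The nearest to Comp were Ccdc3 at 0.96 and Col12a1, a fibril-associated collagen, at 0.94, and Col12a1 also stood second for Chad, at 0.86. Tnc was nearest to Ssc5d at 0.95, Thbs4 to Abi3bp at 0.90, Kera to Angptl1 at 0.91 and Mkx to Col13a1, a transmembrane collagen, at 0.83. The nearest to Scx were Neurl2 at 0.88, Il34 at 0.85 and Unc45a, a myosin chaperone, at 0.85. For Ankrd33b they were Heatr3 at 0.90, Rrm2b, a ribonucleotide reductase subunit, at 0.90 and Ipo11, a nuclear import receptor, at 0.89. With group means removed, the r with Ankrd33b was lower, at 0.74 for Heatr3, 0.84 for Rrm2b and 0.78 for Ipo11.

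Other genes of tendon matrix showed no member past the threshold against control. So few genes passed against control, 0.00656% of all tested in knockout and 0.0587% in D489V, that a count of 0 says little about a short list. Of 13 fibrillar and fibril-associated collagens, 0 of 13 tested passed in either mutant group by limma, with median log2 changes of -0.19 in knockout and -0.31 in D489V. The change was above 0 for 0 of 13 in knockout and 1 of 13 in D489V. Col1a1, the main tendon collagen, had log2 changes of -0.30 (limma adjusted p 0.706) and -0.61 (limma adjusted p 0.279). Col1a2, which encodes the partner chain, had log2 changes of -0.15 in knockout and -0.59 in D489V, and Col3a1 had -0.24 and -0.47. Of 10 other small leucine-rich proteoglycans 9 were tested and 0 passed in either group, as for 10 of 12 matricellular and 16 of 17 other tendon and paratenon genes. The most abundant of these were the proteoglycan Dcn (decorin), with log2 changes of -0.10 and 0.02, and the collagen-binding Sparc, with -0.49 and -0.18. In knockout against D489V, where 20.8% of all genes passed, 0 of 13 collagens, 1 of 9 proteoglycans and 0 of 10 matricellular genes did. The proteoglycan was Podn, at 426 ± 61.2 in knockout and 590 ± 26.4 in D489V (SD, n = 5 each), a log2 difference of -0.48 (limma adjusted p 0.0134), not called with fast fibre rescaling (0.198).

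Of 16 other tendon and paratenon genes, 4 passed in knockout against D489V, 25% beside 20.8% of all genes. The immediate early factor Egr1, also known as a tendon regulator, had a log2 difference of -1.65, from 483 ± 171 normalized counts in knockout to 1489 ± 421 in D489V (SD, n = 5 each; limma adjusted p 0.00307). Egr1 varied widely among controls 1 to 5, at 2489, 2840, 684, 430 and 691, from below the knockout mean to above the D489V mean. The Hedgehog target Gli1 had one of -1.43, at 71.2 ± 9.15 in knockout and 203 ± 73.2 in D489V (SD, n = 5 each). Nfatc4 was lower in knockout by a log2 difference of -0.66, and the homeobox gene Six2 was higher by 0.65, at 777 ± 135 against 488.8 ± 39.8 (SD, n = 5 each). Six2 also varied among controls 1 to 5, at 412, 595, 409, 1093 and 573, from below the D489V mean to above the knockout mean. The calls of Egr1 and Gli1 held under all 23 alternatives, while that of Six2 was lost under 1 (fast fibre rescaling) and that of Nfatc4 under 2 (fast fibre rescaling and without D489V mouse 1). Knockout and D489V mice did not overlap for any of these 4 genes, where 13.9% of all genes tested did not. The 4 were picked by their calls in this same comparison, so the lack of overlap is no separate support.

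The muscle side of the junction was represented by 21 genes, all tested. In bulk muscle their RNA cannot be assigned to the fibre ends rather than to the rest of the tissue. In knockout against control 0 of 21 passed, where 0.00656% of all genes did, with a median log2 change of 0.16. In D489V against control 1 of 21 passed by limma, where 0.0587% of all genes did. It was Ankrd1, a stretch-responsive titin-binding protein, at 546 ± 49.6 in D489V against 327 ± 37.3 in controls (SD, n = 5 each). Its log2 change stayed between 0.67 and 0.78, but the call was lost under 12 of 23 alternatives, among them all 15 samples in one fit (limma adjusted p 0.35), fast fibre rescaling (0.186), the replicate block (0.101) and leaving out any mouse other than D489V mouse 3. In knockout against D489V 7 of 21 passed, 33.3% beside 20.8% of all genes, 5 higher and 2 lower in knockout. Tln2 (talin, which links integrins to actin) was 4760 ± 613 in knockout and 3234 ± 438 in D489V, a log2 difference of 0.56, and the groups did not overlap. Vcl (vinculin), Dmd (dystrophin) and Xirp2, an actin-binding protein of the fibre ends, differed by 0.59, 0.49 and 0.47 in the same direction. Ankrd1 had the opposite sign, with a log2 difference of -1.03. These calls were lost under 1 (Tln2), 3 (Dmd), 5 (Ankrd1), 8 (Vcl) and 14 (Xirp2) of 23 alternatives, with no change of sign. Of 21 TGF-beta, BMP and GDF genes, inputs to tendon formation, 19 and 20 were tested and 0 passed against control in knockout and D489V. Of 20 tested in knockout against D489V 2 passed, Bmp4 with a log2 difference of -0.66 and Smad3 with one of 0.44, calls lost under 5 and 11 of 23 alternatives.

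Markers of other tissues varied with the tendon genes across mice. The summed level of 8 slow fibre genes was 7387 and 20801 normalized counts in knockouts 1 and 2, where the tendon sum was highest. It was 204313, 149988 and 128010 in knockouts 3 to 5, and 190687 in control 5, the lowest control for the tendon sum. D489V mouse 3, with 199266, and D489V mouse 1, with 51254, did not follow this order. The 8 lymph node genes summed to 1783, 4510 and 1232 in knockouts 3 to 5 and 4867 in control 5, against 26 to 252 in the other 11 mice. The 13 collagens were lowest in knockout 3, at 60065 against 99943 to 253181 elsewhere. Some posterior Hox genes, which mark position along the body and limb, divided the knockouts at the same place, in either direction. Hoxd8 was 511 and 410 in knockouts 1 and 2 and 1181, 1110 and 1170 in knockouts 3 to 5, and Hoxa13 was 10 and 8 and then 113, 87 and 97 (both chosen after their values were seen). Hoxc8 went the other way, at 193 and 201 and then 90, 63 and 81, as did Hoxc9, Hoxc10 and Hoxa9. Hoxa10 did not divide them, at 488 and 418 and then 389, 519 and 466. Hoxd8 was also high in controls 4 and 5 (1218 and 1070) and D489V mouse 3 (1091), and 328 to 482 in the other 7 mice of those groups. All 14 Hox genes together summed to 4290 to 6137 in controls, 4102 to 5496 in knockouts and 4593 to 5767 in D489V, with Hoxd12 at 0 in every mouse. The part of slow fibre, lymph node, collagen and Hox genes in the split of the knockout group was not tested.

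Cartilage genes were uneven in the same mice in which Comp and Chad, which cartilage also expresses, were high. Col2a1, the main cartilage collagen, held 5143 normalized counts in control 3, 5217 in knockout 2 and 2857 and 1946 in D489V mice 4 and 5, against 178 to 1285 in the other 11. Control 3, knockout 2 and D489V mice 4 and 5 were also the highest of their groups for Comp and Chad, and likewise for Tnc. Ibsp, a bone sialoprotein gene, was 87, 78, 134 and 114 in these 4 mice and at most 26 elsewhere. For Thbs4, control 3 and D489V mice 4 and 5 were again the highest of their groups, but among knockouts it was mouse 1. Knockout 1 also had the second highest Comp of all mice, 1582, with Col2a1 at 1251 and Ibsp at 20. The 14 cartilage genes summed to 538 to 5814 in controls, 457 to 5944 in knockout and 498 to 3428 in D489V, with Matn1 and Col10a1 at or near 0 in all mice. The 10 bone genes summed to 521 to 767, 608 to 825 and 502 to 814, with Sost and Mepe at or near 0. The part of cartilage in the Comp and Chad values was not tested.

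**Figure D5:**
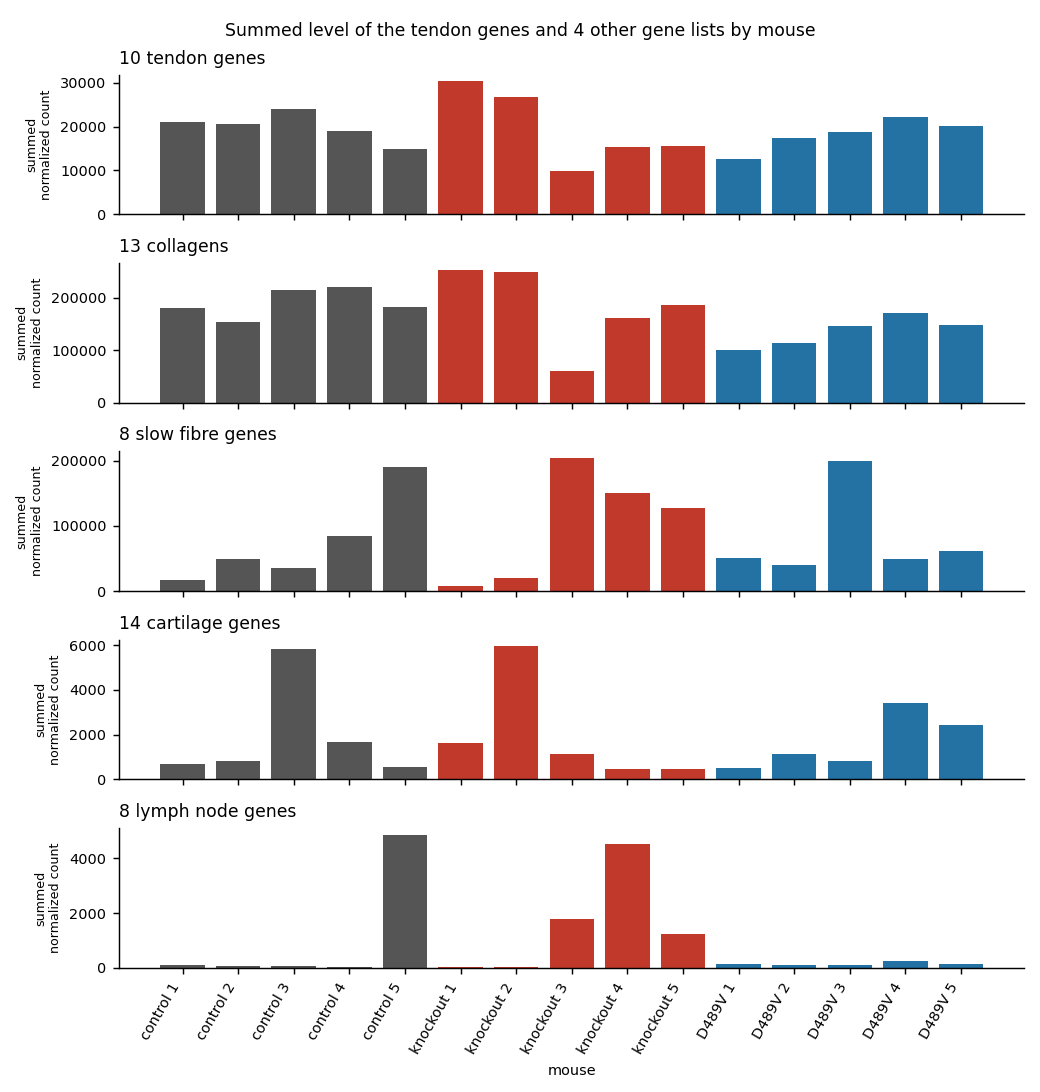
Summed normalized count by mouse (linear axes from 0) of the 10 tendon genes, 13 collagens, 8 slow fibre genes, 14 cartilage genes and 8 lymph node genes; bars are single mice, grey for control, red for knockout and blue for D489V. Knockouts 1 and 2 have the highest tendon bars and low slow fibre bars, and control 3 and knockout 2 the highest cartilage bars.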

How the data were processed

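RNA of 15 muscles was profiled. The values are a score: the authors deposited gene counts normalized between samples, held as whole numbers, in 2 tables that share the controls. The submitters' processing notes name Trim Galore 0.6.0, cutadapt, FastQC, STAR 2.7.0e, DESeq2 1.26.0 and GRCm38, while the counting tool and strand setting are not given in the sources used here. Raw depth is therefore unknown.

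The tables were joined by gene identifier, and all 55536 matched GENCODE M21, which gave exon lengths. Each comparison of 5 against 5 mice was fitted on log2(value + 1) with limma 3.58.1 in R 4.3.3 (eBayes with trend, two-sided), for genes with 10 or more in at least 5 of the 10 mice, with calls made where the p adjusted by Benjamini-Hochberg was under 0.05. Fold changes on this scale understate changes of low genes. The script was tested on simulated data. Correlations used genes with a mean of 50 or more, naming the 3 nearest per member. Named genes are all members, and of each other list at most 5 called genes by size of change or 3 by level. The members and lists were chosen with earlier results of these data known. Python 3.11.15 was used for joins and plots.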

Additional observations from a re-analysis of the deposited data

Results flagged for a closer look

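Ankrd33b stood out because its change from control differed between the mutant groups. The direct comparison of knockout and D489V gave a log2 difference of 0.66, with a limma adjusted p of 0.0324 over 15299 genes. Of all genes tested there, 20.8% passed. For Ankrd33b 4 of 5 knockouts lay above every D489V mouse, which is no separate support, since the same values gave the call. Over the 23 alternatives its limma adjusted p ran from 0.0123 to 0.0851, and the call was lost under 10. Of 30 groups of 5 values (10 genes in 3 groups), 0 had a highest or lowest mouse set apart by a gap over 0.71 of the range, where chance flags about 1 in 20 groups.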

How the results depend on the processing

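Over 23 alternatives per comparison, 613 of 690 values of the tendon genes kept their direction and side of the threshold, 66 uncalled values changed sign, 10 lost a call and 1 gained one. The Hox and slow fibre score covariates were chosen after seeing the data. Genes called in knockout against control (1, lower) numbered 3 (0 higher) with quantile normalization, 3 (0 higher) with fast muscle fibre rescaling, 16 (4 higher) with all 15 samples in one fit, 3 (1 higher) with the Hox covariate, 17 (3 higher) with the slow fibre covariate and 1 to 7 without single mice. There the slow fibre covariate called 1 tendon gene, Ankrd33b (limma adjusted p 0.0463). In D489V against control (9, 4 higher) they numbered 19 (10 higher) with pseudocount 5, 4 (3 higher) with a mean of 50 or more, 17 (10 higher) with upper-quartile rescaling, 16 (7 higher) with quantile normalization, 1 (1 higher) with fast fibre rescaling, 21 (11 higher) with robust eBayes, 86 (50 higher) with array weights, 1 (0 higher) in one fit, 168 (124 higher) with Hox, 101 (62 higher) with slow fibre and 2 to 26 without single mice, and 0 tendon genes passed under any of these. In knockout against D489V (3181, 1599 higher) fast fibre rescaling gave 639 (250 higher), and leaving out single mice 1398 to 3686. The 1 call there among the listed genes, Ankrd33b, fell to 0 with fast fibre rescaling, the Hox covariate and the replicate block, and was 0 to 1 without single mice. For all of these, the cause was not tested.

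Log2 changes that turned sign were Comp in knockout against control (0.0305 upper-quartile, 0.0505 fast fibre, 0.0766 array weights, 0.0097 slow fibre) and Thbs4 in D489V against control (-0.0121 quantile, -0.0196 fast fibre, -0.0533 array weights). In knockout against D489V they were Fmod (0.0256 upper-quartile, 0.10 fast fibre, 0.12 array weights), Chad (0.0336, 0.11 and 0.10), Thbs4 (0.00955 fast fibre, 0.0319 array weights), Tnc (0.0276 array weights), Tnmd (-0.0576 Hox, -0.0641 slow fibre) and Comp (-0.0996 and -0.027). Leaving out single mice gave ranges across 0: in knockout against control, Thbs4 -0.32 to 0.18, Comp -0.22 to 0.24, Chad -0.30 to 0.0336. Likewise, in D489V against control, Scx -0.0119 to 0.23, Thbs4 -0.12 to 0.15, Comp -0.20 to 0.20, Chad -0.25 to 0.13, Ankrd33b -0.0714 to 0.19. Likewise, in knockout against D489V, Tnmd -0.23 to 0.34, Mkx -0.15 to 0.28, Thbs4 -0.35 to 0.15, Fmod -0.18 to 0.25, Comp -0.21 to 0.31, Kera -0.14 to 0.39, Chad -0.26 to 0.16, Tnc -0.39 to 0.0662. Same-numbered mice did not deviate together, so the numbers were not taken to pair them. With the replicate block, genes called were 1, 7 and 2208 in the 3 comparisons, and Ankrd33b in knockout against D489V had a limma adjusted p of 0.0638.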

Other observations

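Ratios between tendon genes within a mouse were steadier for some pairs than for others. The Comp to Thbs4 ratio of normalized counts, both thrombospondins, lay between 0.128 and 0.183 in 14 mice and was 0.0836 in D489V mouse 1, which also had the lowest Comp (437) and the lowest Chad (325) of all mice. The Chad to Tnmd ratio ranged more widely, from 0.626 in control 1 to 1.82 in D489V mouse 5. The Kera to Fmod ratio ran from 0.084 in knockout 4 to 0.165 in control 2. The Scx to Tnmd ratio was 1.07 in knockout 3 against 0.317 to 0.758 in the other 14 mice. No test was made of these ratios, which were chosen after the values had been seen.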
